A study of Mus musculus with 12 samples.

Results

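The carbonic anhydrases described here are 10 of the 28112 features in the authors' deposited table: Car2, Car3, Car4, Car7, Car8, Car9, Car10, Car11, Car12 and Car13. They were chosen by name, from a list drawn up with their values in the 3 comparisons below known, so those values are given as a description and support no test. RNA was sequenced in 12 libraries from 3 mouse small cell lung cancer lines, all derived from tumors that lack Trp53 and Rb1 and all grown as floating spheres. The line 16T with an shRNA against Nfib was set against 16T with a control shRNA (shLuc), KP1 with the same Nfib shRNA against KP1 with the control, and KP22 with Nfib cDNA against KP22 with an empty vector, with 2 libraries in each of the 6 groups. The labels give 16T and KP1 as Nfib high and KP22 as Nfib low, and each line stands for 1 tumor. Nothing in the labels says that the duplicates were separate cultures, so the errors measure the spread between these libraries and may be technical. The table holds 1 mean normalized count per feature over the libraries of the authors' fit and, for each comparison, a log2 fold change with its SE. Values per library were not used here, so neither the level in a given line nor the number of libraries that show a direction is known.

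Carbonic anhydrases are zinc enzymes that interconvert carbon dioxide and bicarbonate with release of a proton, and thereby set pH inside and outside cells. Car2, Car3, Car7 and Car13 encode cytosolic forms, Car4 a form anchored to the cell surface by a lipid, and Car9 and Car12 transmembrane forms whose active site faces outwards. Car9 is a widely used marker of hypoxia, being a target of the hypoxia-inducible factor HIF-1. Car8, Car10 and Car11 encode related proteins without the zinc-dependent activity. The Car8 protein binds the type 1 inositol trisphosphate receptor, a calcium release channel, and mice without it are ataxic, while the Car10 and Car11 proteins are secreted and bind neurexins at synapses.

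Nfib, the gene that was targeted, had a mean normalized count of 30668 in the authors' deposited table. The same table gave it a log2 fold change of -1.08 ± 0.035 in 16T and -1.32 ± 0.035 in KP1 with the Nfib shRNA, and of 1.80 ± 0.036 in KP22 with the cDNA (± is the SE throughout). The headings of the table name no direction, which was read from Nfib itself, and reads of the introduced cDNA were not told apart from those of the gene. The neuroendocrine markers Uchl1, Chga, Insm1, Ncam1, Calca and Syp had means of 25975, 25383, 15922, 8873, 5678 and 5290, whereas the 4 leukocyte markers reached at most 13.4 and the 3 erythroid markers found in the table at most 40.8. Among the fibroblast, endothelial, and airway and alveolar markers, Pdgfra (2220), Dcn (284), Kdr (495), Sftpc (171) and Foxj1 (157) had means above 100. Some of these markers moved with the comparisons. Among the neuroendocrine ones Calca had the signs of Car8, at 1.31 ± 0.049 (16T), 0.90 ± 0.048 (KP1) and -1.71 ± 0.056 (KP22), as did Syp at 0.44 ± 0.050, 0.21 ± 0.049 and -0.86 ± 0.051 in the authors' deposited table. Chga fell in all 3 lines, by 0.39 ± 0.036, 0.58 ± 0.036 and 1.04 ± 0.037 in the authors' deposited table. Insm1 had -0.19 ± 0.039, -0.19 ± 0.038 and 0.47 ± 0.039, Ncam1 0.048 ± 0.041, -0.26 ± 0.041 and -0.24 ± 0.043, and Uchl1 -0.34 ± 0.050, 0.15 ± 0.050 and 0.057 ± 0.050 in the authors' deposited table. Kdr fell in all 3 comparisons (-1.48 ± 0.18, -1.62 ± 0.21 and -1.76 ± 0.16 in the authors' deposited table), Sftpc fell in 16T by 2.07 ± 0.25, and Dcn and Pdgfra rose in 16T. Pdgfra fell in KP1. Their part in the results was not tested, and in these cultures fewer cells with a transcript cannot be told apart from less of it per cell.

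The transcripts of the inactive proteins made up nearly all of the signal of the 10 listed genes. Per kilobase of exon, Car11 had a mean normalized count of 1371, Car10 of 271 and Car8 of 263. Each was above the median of 233 over the 19567 genes with 1 name and a mean above 0, and these 3 genes held 98.4% of the sum over the 10. Without scaling to length they held 98.8% over the 10, and 94.0% over all 16 carbonic anhydrase genes examined. Per kilobase Car11 was 5.06 times as high as Car10, and the ratio of Car8 to Car10 was 0.971. Whether the authors' normalization had already corrected for length is not given in the sources used here, and without scaling these ratios were 2.19 and 1.67. As the mean is taken over 3 lines and both arms of each comparison, the order within a line may differ.

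The listed catalytic genes were far lower. Car7, which encodes a cytosolic enzyme of neurons, was the highest of these 7 at 17.7 mean normalized counts per kilobase, so that Car8 was 14.9 times as high. Of the catalytic genes outside the list, only Car15 at 111 and Car14 at 69.2 per kilobase were higher than Car7. Among the listed genes Car7 was followed by Car9 at 6.996, Car4 at 3.24, Car12 at 2.53, Car13 at 1.21 and Car2 at 0.042 per kilobase, and Car3 was listed at 0. Car2 encodes the abundant enzyme of red blood cells, kidney and osteoclasts, and Car3 that of skeletal muscle and fat. The authors gave no error for these means, so neighbors in this order cannot be told apart by their spread.

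**Figure D1:**
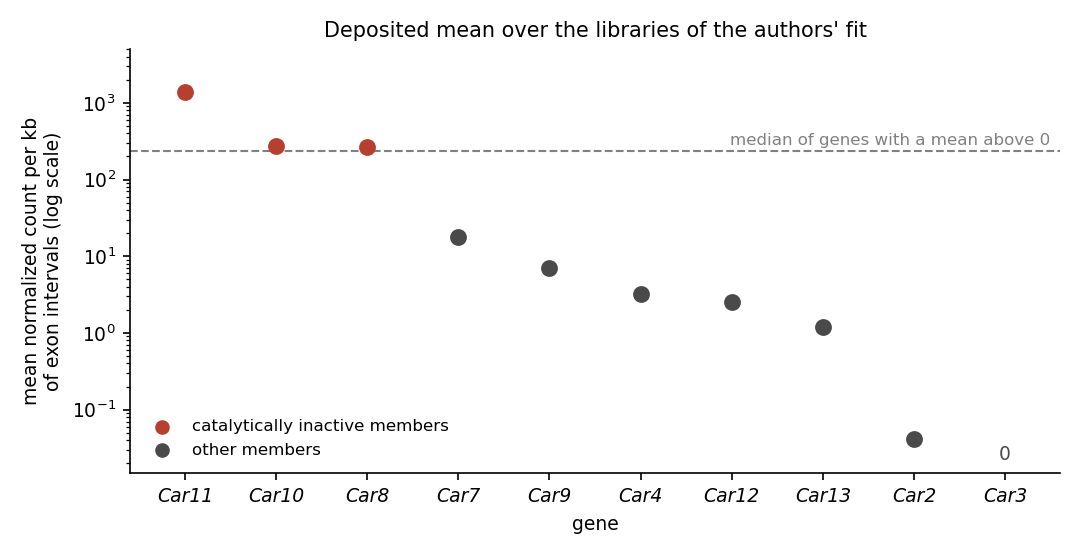
Mean normalized count per kilobase of exon intervals (log axis) for the 10 carbonic anhydrases, 1 point per gene, from the mean over the libraries of the authors' fit; no error is given for these means. Car11, Car10 and Car8, in red, lie above the dashed median of 233, the next gene, Car7, is at 17.7, and Car3 is listed at 0.

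The unscaled means, which govern the precision of each fold change, were 1974 for Car11, 1505 for Car8, 903 for Car10 and 27.2 for Car7 in the authors' deposited table. In that table they were 9.38 for Car12, 8.93 for Car9, 4.22 for Car4, 2.78 for Car13, 0.0752 for Car2 and 0 for Car3. The lowest mean with an adjusted p was 15.7 for both knockdowns and 0.927 for KP22. Hence 4 of the 10 genes had an adjusted p in 16T and in KP1, and 8 in KP22. Genes with an adjusted p below 0.05 are called risen or fallen. It comes from a table with the column names of DESeq2, whose test statistic equals the fold change over its SE.

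In 16T with the Nfib shRNA 3 of the 4 genes with an adjusted p passed it, beside 45.3% of all 14504 genes tested. Car8 and Car11 rose (20.0% of all genes did) and Car10 fell (25.3%). In KP1 with the Nfib shRNA 1 of 4 passed, Car8, which rose, beside 37.2% of 14504 genes in either direction, 17.6% higher and 19.6% lower. In KP22 with Nfib cDNA 2 of 8 passed, Car8 and Car11, which both fell, beside 38.4% of 17544 genes in either direction, 18.8% lower and 19.5% higher. Because the genes were listed with these comparisons known, nothing is read from these counts. Over the 9 genes with a value the median log2 fold change was 0.089 (16T), -0.0038 (KP1) and -0.50 (KP22), against -0.051, -0.017 and 0.039 over all genes with an adjusted p.

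Car8 moved against Nfib in all 3 lines. It lies on the minus strand of chromosome 4, where its 9 exon intervals span 8141493 to 8239041 (mm10) and hold 5722 bases. In the authors' deposited table its log2 fold change was 3.19 ± 0.12 in 16T with the Nfib shRNA, a 9.15-fold higher level than with the control shRNA (95% interval 7.79 to 10.8). In KP1 with the Nfib shRNA the deposited value was 2.57 ± 0.12, or 5.95-fold higher (5.07 to 6.97). With Nfib cDNA in KP22 the authors' deposited table gave -2.74 ± 0.18, which leaves 14.9% of the level with the empty vector (interval of the ratio 0.116 to 0.192). These comparisons share no libraries. The rise in 16T exceeded that in KP1 by 0.62 ± 0.17 on the log2 scale (interval 0.29 to 0.95), a difference given as a description.

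Among the 12287 genes with a mean of at least 100, Car8 ranked 12th from the top by log2 fold change in 16T, 27th from the top in KP1 and 51st from the bottom in KP22. A log2 fold change of at least 2 in both knockdowns and of -2 or below with the cDNA was found for 3 of these genes, Car8, Chrna3 and Rasgrf2, a bound chosen after the values were seen. The genes whose 3 log2 fold changes lay nearest to those of Car8, by Euclidean distance over the 3 comparisons, were Rasgrf2 at 0.55, Th at 1.03, F5 at 1.13, Padi3 at 1.23 and Cacna2d4 at 1.29. Rasgrf2 encodes an exchange factor for Ras proteins, Th tyrosine hydroxylase, which makes the precursor of catecholamines, F5 coagulation factor V, Padi3 a peptidylarginine deiminase and Cacna2d4 a calcium channel subunit. In the authors' deposited table Rasgrf2, at a mean of 244, was at 2.84 ± 0.26 for 16T, 2.34 ± 0.23 for KP1 and -2.38 ± 0.39 for KP22. Padi3 came closest in KP1, with 2.65 ± 0.26 in the authors' deposited table, but had only -1.54 ± 0.20 in KP22.

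**Figure D2:**
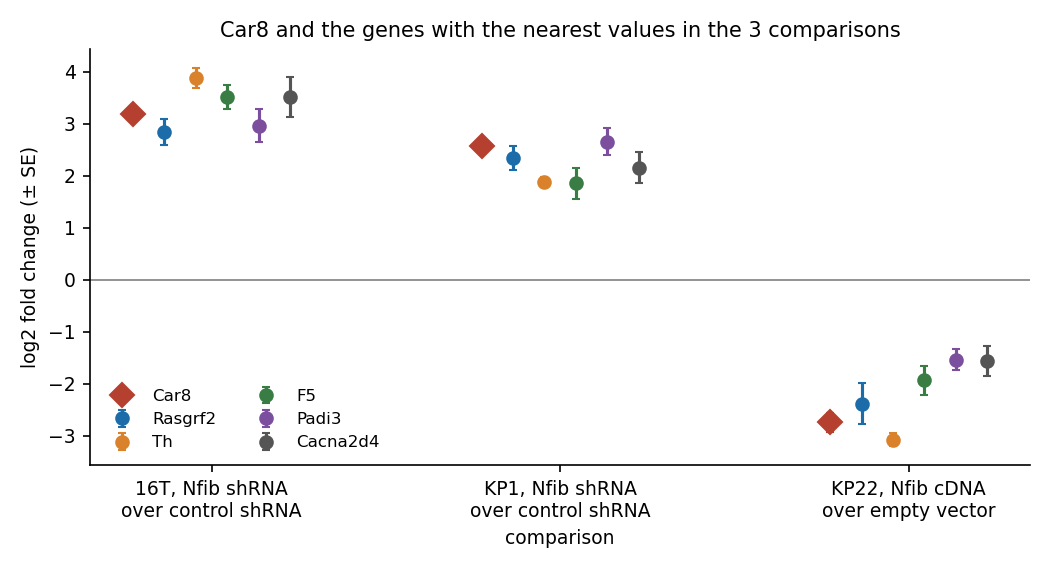
Log2 fold change ± SE in the 3 comparisons (columns) for Car8 (diamonds) and the 5 genes whose values were nearest to it (circles, colored by gene), from the authors' deposited table. All 6 genes lie above 0 with the Nfib shRNA in 16T and KP1 and below 0 with Nfib cDNA in KP22, where Car8 is at -2.74 and Th at -3.09.

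Car11 and Car10, both encoding secreted proteins that bind neurexins, differed between the lines and from each other. Car11 lies on the plus strand of chromosome 7, from 45699967 to 45704661 (mm10), with 9 intervals of 1440 bases in all. It rose in 16T with the Nfib shRNA by 1.35 ± 0.081 in the authors' deposited table, or 2.55-fold (2.29 to 2.85), and fell in KP22 with Nfib cDNA by 0.50 ± 0.081, to 70.8% of the empty vector level. In KP1 the authors' deposited table gave 0.092 ± 0.074, which did not pass (interval -0.053 to 0.24). The 16T effect exceeded the KP1 effect by 1.26 ± 0.11 (1.04 to 1.47).

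Car10 lies on the plus strand of chromosome 11, from 93099290 to 93601751 (mm10), with 9 intervals of 3336 bases. It fell in 16T with the Nfib shRNA by 1.12 ± 0.11 in the authors' deposited table, to 46.0% of the control shRNA level (interval of the ratio 0.397 to 0.533). The authors' deposited table gave 0.037 ± 0.12 for KP1 (interval -0.19 to 0.27) and 0.22 ± 0.10 for KP22 (0.018 to 0.42), and neither passed, with an adjusted p of 0.864 in KP1 and of 0.0848 in KP22 from the authors' DESeq2 fit. Its 16T effect lay 1.16 ± 0.16 below its KP1 effect as a difference of log2 values, with both lines carrying the same shRNA. Car8 and Car11 therefore rose and Car10 fell in 16T, while Car8 alone of these 3 passed in KP1.

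**Figure D3:**
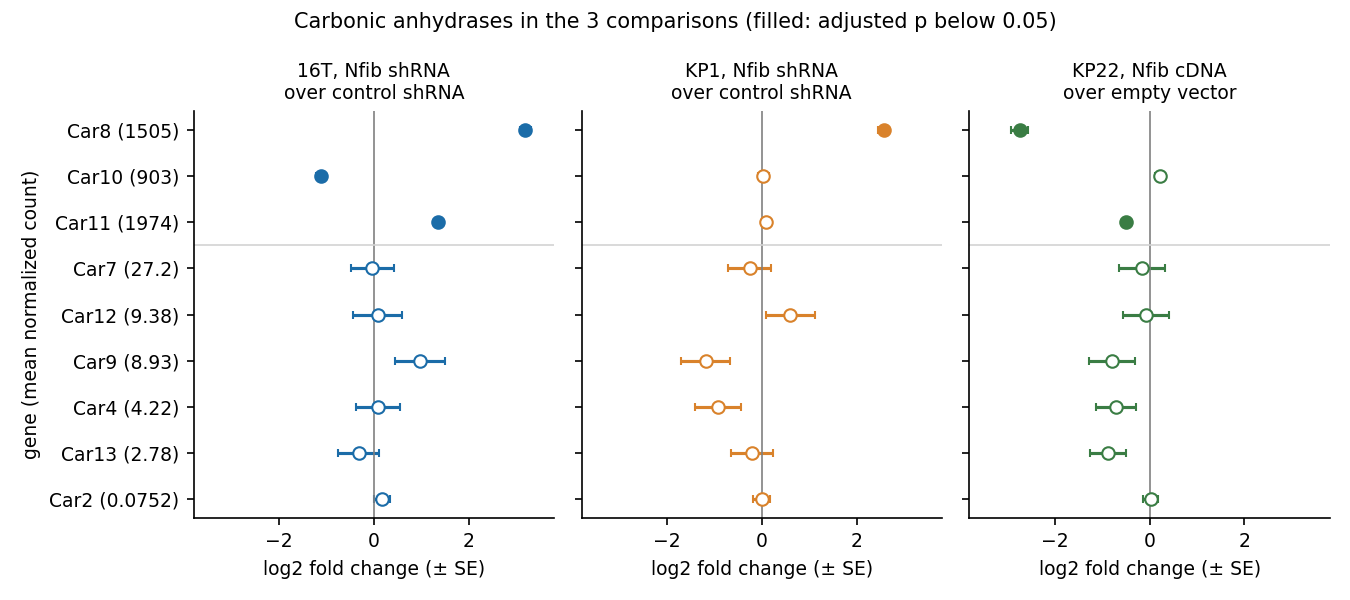
Log2 fold change ± SE of the 9 carbonic anhydrases with a value, in 16T and KP1 (Nfib shRNA over control shRNA) and KP22 (Nfib cDNA over empty vector), from the authors' deposited table; filled points have an adjusted p below 0.05, and numbers beside the names are mean normalized counts. Car8 is at 3.19, 2.57 and -2.74, Car10 and Car11 are filled in 16T at -1.12 and 1.35, and none of the 6 listed catalytic genes is filled. Open points include values without an adjusted p.

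Of the 6 listed catalytic genes with a value, only Car7 had an adjusted p in 16T and in KP1. In KP22 all of them but Car2 had one. None of these adjusted p-values passed, and the other changes were not put to the threshold. In the authors' deposited table Car9, the hypoxia marker, was at 0.97 ± 0.52 for 16T, -1.18 ± 0.52 for KP1 and -0.80 ± 0.49 for KP22 at a mean of 8.93, and an adjusted p was given for it in KP22 alone (0.207, DESeq2). Its 16T effect minus its KP1 effect was 2.15 ± 0.74 (interval 0.71 to 3.60), given as a description at this low mean. Adjusted over all features without a filter, its DESeq2 p was 0.164 in 16T and 0.0871 in KP1, and neither passed. Car9 lies on chromosome 4 from 43507026 to 43512933 (mm10), and its last exon is not in this feature. That exon was merged with Tpm2 into a joined interval of 2960 bases with a mean of 5.95, whose values in the authors' deposited table were 0.44 ± 0.50 for 16T, -0.88 ± 0.51 for KP1 and 0.70 ± 0.47 for KP22. A further 145 bases of Car9 exon overlap the antisense gene Gm12454 in GENCODE, and the labels do not say whether counting used the strand.

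For 16T, KP1 and KP22, the authors' deposited table gave Car12 0.078 ± 0.52, 0.60 ± 0.52 and -0.066 ± 0.49, and Car7 -0.030 ± 0.45, -0.25 ± 0.45 and -0.17 ± 0.48. Car4, which marks a type of alveolar capillary cell, had 0.089 ± 0.46, -0.92 ± 0.49 and -0.72 ± 0.42 there, in the same order of the authors' deposited table. Car13 had -0.32 ± 0.44, -0.20 ± 0.44 and -0.88 ± 0.38, the last with an adjusted p of 0.0559 in the authors' deposited table (DESeq2). Car2, at a mean of 0.0752, had an SE of 0.171 in 16T, smaller than the 0.521 of Car12 at 9.38, so a small SE at so low a mean is no sign of precision. For Car4, Car7, Car9, Car12 and Car13 a change of the size seen for Car11 in KP22 would have a 95% interval that includes 0. Such a change was not detectable for these genes at their means. Car2 had no adjusted p in any comparison.

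The neighbors of Car8 on chromosome 4 had far smaller fold changes, and neither shared its signs in all 3 lines. Tox, 1150769 bases away towards lower coordinates, fell in 16T (-0.18 ± 0.057) and rose in KP1 (0.20 ± 0.056) and in KP22 (0.40 ± 0.057), and Rab2a, 296602 bases away on the other side, had -0.14 ± 0.043, -0.27 ± 0.043 and -0.077 ± 0.043 in the authors' deposited table. Beside Car10, Utp18 fell in 16T too (-0.33 ± 0.063) and rose in KP22 (0.52 ± 0.063) in the authors' deposited table. Dbp, which encodes a clock-controlled transcription factor, begins 585 bases past the last Car11 interval on the same strand. In the authors' deposited table Dbp was at 1.61 ± 0.095 (16T), 0.71 ± 0.092 (KP1) and -0.62 ± 0.098 (KP22), and all of these passed. Dbp and Car11 thus rose in 16T and fell in KP22 together, and the part of reads crossing between them was not tested.

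**Figure D4:**
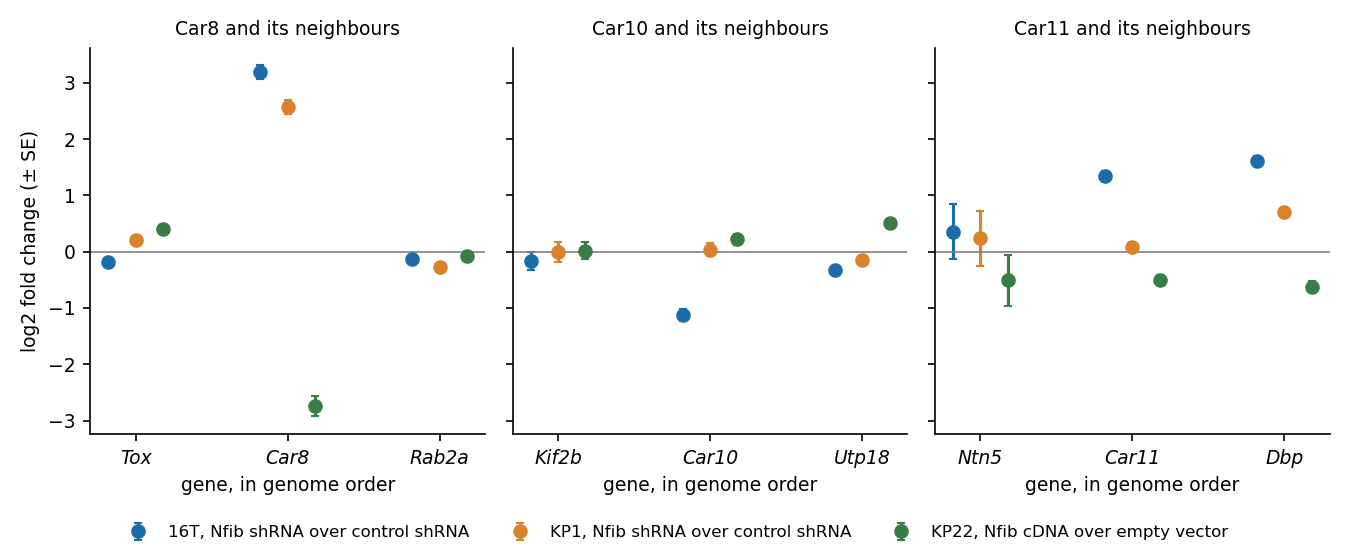
Log2 fold change ± SE of Car8, Car10 and Car11 (middle of each panel) and of the nearest protein-coding gene on either side, in 16T, KP1 and KP22 (colors), from the authors' deposited table. Tox and Rab2a stay within 0.41 of 0 where Car8 is at 3.19, 2.57 and -2.74, and Dbp lies at 1.61, 0.71 and -0.62 beside Car11 at 1.35, 0.092 and -0.50.

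RefSeq promoter windows (GRCm38.p6, the coordinates of mm10), each 300 bases with 250 before the start site, matched 6 of the 10 genes. Car2, Car3, Car8 and Car13 were not among them. The windows at the deposited first exons of Car11 (chr7:45699717-45700016), Car10 (chr11:93099040-93099339) and Car9 (chr4:43506776-43507075) are shown, the first pair because these genes passed in 16T and the last because Car9 is the hypoxia marker. All are on the plus strand, and capitals mark matches on either strand to ACGTG or GCGTG, the core letters of the HIF element, and to TTGGC, the shorter element of NFI factors such as Nfib.
Car11: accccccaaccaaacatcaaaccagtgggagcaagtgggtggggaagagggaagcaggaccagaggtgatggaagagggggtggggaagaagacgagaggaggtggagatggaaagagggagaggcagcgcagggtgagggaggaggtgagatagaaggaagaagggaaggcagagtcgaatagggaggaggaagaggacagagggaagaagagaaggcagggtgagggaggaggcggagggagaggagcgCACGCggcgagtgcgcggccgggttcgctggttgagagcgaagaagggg
Car10: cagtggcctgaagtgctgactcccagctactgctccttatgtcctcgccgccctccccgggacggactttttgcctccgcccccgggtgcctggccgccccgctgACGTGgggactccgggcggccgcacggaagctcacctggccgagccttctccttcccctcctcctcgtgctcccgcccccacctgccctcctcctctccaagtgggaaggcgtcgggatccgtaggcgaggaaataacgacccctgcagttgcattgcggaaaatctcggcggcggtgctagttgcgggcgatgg
Car9: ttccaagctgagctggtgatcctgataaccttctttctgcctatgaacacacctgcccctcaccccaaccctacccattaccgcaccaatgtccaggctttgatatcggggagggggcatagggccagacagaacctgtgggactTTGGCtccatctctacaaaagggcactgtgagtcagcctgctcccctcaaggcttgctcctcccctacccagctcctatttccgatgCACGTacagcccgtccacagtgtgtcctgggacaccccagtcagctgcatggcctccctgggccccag
With the start site as position 0, the Car11 window shown held GCGTG on the minus strand at 1 to 5, and the Car10 window shown ACGTG on the plus strand at -145 to -141. A further Car11 window, at another start site and not shown, held TTGGC on the plus strand at -183 to -179. That window also held GCGTG on the minus strand at -218 to -214. A further Car10 window held none of these elements. The Car9 window held ACGTG on the minus strand at -18 to -14 and TTGGC on the plus strand at -105 to -101. Of all 32851 windows of this length, 19.6% held ACGTG, 32.4% GCGTG and 46.7% TTGGC on either strand. The full NFI palindrome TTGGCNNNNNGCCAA, which contains the shorter element, was in 0.0365% of windows and in none of the windows of the 6 matched genes. A match describes the letters and says nothing of binding.

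The gene families whose proteins the inactive members bind were well measured. Of the inositol trisphosphate receptors, only the type 1 form is described above as bound by the Car8 protein. Of the 3 inositol trisphosphate receptor and 3 neurexin genes, 2 rose and 2 fell in 16T, 2 rose and 2 fell in KP1, and 2 rose and 3 fell in KP22, with medians of -0.10, 0.11 and -0.43. That is 66.7%, 66.7% and 83.3% of 6 genes, beside 45.3%, 37.2% and 38.4% of all genes with medians of -0.051, -0.017 and 0.039. Itpr1, which encodes the receptor bound by the Car8 protein, moved against Car8: per the authors' deposited table it fell in 16T (-0.24 ± 0.077) and KP1 (-0.81 ± 0.077) and rose in KP22 (0.51 ± 0.083). Itpr3, encoding the type 3 receptor, moved with Car8, at 2.15 ± 0.10 (16T), 1.30 ± 0.13 (KP1) and -3.90 ± 0.10 (KP22), per the authors' deposited table. Nrxn3, a neurexin gene, rose in 16T (0.73 ± 0.099) and in KP22 (1.15 ± 0.15), and Itpr2 fell in KP1 (-1.01 ± 0.27) in the authors' deposited table. All of these had means of at least 178.

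Bicarbonate transporters and acid exporters work beside carbonic anhydrases in setting pH. Of the 17 bicarbonate transporter genes, 12 had an adjusted p in 16T and KP1, and 2 rose and 2 fell in 16T and 2 rose and 0 fell in KP1, while 2 rose and 1 fell of 17 in KP22 (medians -0.31, -0.12 and -0.18). The shares called were 33.3%, 16.7% and 17.6%, beside 45.3%, 37.2% and 38.4% of all genes. Slc4a5, a sodium bicarbonate cotransporter, rose in 16T (1.23 ± 0.33) and KP1 (1.005 ± 0.32) in the authors' deposited table. Slc4a3, an anion exchanger, rose there in 16T (0.40 ± 0.059) and KP1 (0.80 ± 0.059). Slc26a6 fell in 16T (-0.51 ± 0.12), and Slc4a8 fell in 16T (-0.23 ± 0.064) and KP22 (-0.34 ± 0.066) in that table. Slc26a2, counted in this list though a sulfate transporter of the same family as Slc26a6, rose in KP22 with the cDNA. Its value was 0.67 ± 0.18 in the authors' deposited table.

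The 16 genes listed as proton and lactate exporters include Bsg and Slc9a3r1, which encode a chaperone and a scaffold of such transporters. Of this list, 4 rose and 2 fell of 13 in 16T, and 2 rose and 3 fell of 13 in KP1. In KP22, 2 rose and 4 fell of 15 (medians 0.013, -0.029 and -0.028 in 16T, KP1 and KP22). These shares of 46.2%, 38.5% and 40% were near those of all genes, 45.3%, 37.2% and 38.4%. Slc16a3, a lactate transporter, rose by 2.40 ± 0.065 in 16T and fell in KP22 (-0.44 ± 0.064) in the authors' deposited table. Its chaperone gene Bsg moved the same way there, at 0.81 ± 0.042 in 16T and -0.54 ± 0.042 in KP22. Neither Slc16a3 nor Bsg passed in KP1. In the same table Slc9a3r1, a scaffold for sodium-proton exchangers, rose in 16T (0.39 ± 0.12) and KP1 (0.86 ± 0.13) and fell in KP22 (-0.53 ± 0.13). Slc16a1 rose in 16T (0.31 ± 0.10) and fell in KP1 (-0.33 ± 0.098) in that table. Slc9a2, an exchanger, fell per the authors' deposited table in 16T (-0.92 ± 0.31) and KP22 (-0.63 ± 0.25). Of the 11 acid sensor genes, 1 rose and 1 fell of 5 in 16T and in KP1, and 0 rose and 3 fell of 9 in KP22, with medians of 0.42, 0.21 and -0.18. The shares of 40%, 40% and 33.3% were likewise near those of all genes. The acid-sensitive potassium channel gene Kcnk3 moved as Car8 did, at 1.03 ± 0.086 (16T), 0.51 ± 0.085 (KP1) and -0.52 ± 0.097 (KP22), while the proton-gated channel gene Asic1 fell in all 3 lines (-0.64 ± 0.14, -0.77 ± 0.14 and -0.59 ± 0.14) in the authors' deposited table.

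Other targets of HIF were set beside Car9, whose only deposited adjusted p, in KP22, did not pass. Of 14 such genes, 13 rose and 0 fell in 16T, 0 rose and 9 fell in KP1, and 3 rose and 7 fell in KP22, with medians of 1.62, -0.30 and -0.14. Of all genes 20.0% rose and 25.3% fell in 16T, 17.6% rose and 19.6% fell in KP1, and 19.5% rose and 18.8% fell in KP22, with medians of -0.051, -0.017 and 0.039. Ankrd37 rose by 2.77 ± 0.14 and Bnip3, a mitophagy receptor, by 2.71 ± 0.058 in 16T, Kdm3a and Ndrg1 fell in KP1 (-0.48 ± 0.044 and -0.48 ± 0.048), and P4ha1 and the glucose transporter gene Slc2a1 fell in KP22 (-0.92 ± 0.056 and -0.76 ± 0.053), in the authors' deposited table.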

How the data were processed

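Per the labels' protocols, a Qiagen kit was used for RNA and a TruSeq kit for the libraries. TopHat, bedtools, DESeq and DESeq2 with mm10 are named, without versions, in the submitters' processing notes, and the table's name mentions cqn normalization. Per the file headers, the authors deposited a mean normalized count per feature (a signal over all libraries), log2 fold changes with SEs on the log2 scale, p-values and adjusted p-values, also for a test against a change of 0.5. A deposited list gave 211975 merged RefSeq exon intervals on mm10, used for positions and lengths. The depth of each library is unknown, and precision is therefore given by the SEs alone.

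The 23226 features with 1 gene name were used, and the 4886 with joined names only as an alternative. Whether cqn already corrected for length is not given in the sources used here; counts per kilobase assume that it did not. Intervals of 95% assume normal errors. Differences between 16T and KP1 were computed with independent errors. The members and lists were chosen with earlier results of these data known. Named genes were all members, the other carbonic anhydrases, the 5 genes nearest to the member with the largest change (means of at least 100), and from each list the 2 largest changes that passed per comparison. Itpr1 and the genomic neighbors were added after their values were seen. The design foresaw protein sequences, which were not used here. Alternatives were another threshold, filter, centring or reference distribution. The adjustment was run on simulated tables with noise drawn from the deposited SEs, which cannot show whether those SEs are right. Python 3.11.15, pandas 2.3.3, scipy 1.17.1 and matplotlib 3.10.9 were used.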

Additional observations from a re-analysis of the deposited data

How the results depend on the processing

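The carbonic anhydrases called in 16T (3) and KP1 (1) numbered the same under all 7 alternatives run. In KP22 the count of 2 was 1 with the authors' test against a change of 0.5 and 1 with a change of at least 1, Car11 being lost, and it was 3 when effects were recentred on the median gene (0.039 in KP22), where Car13 passed with an adjusted p of 0.0448 from the normal distribution in place of DESeq2's 0.0559. The other 4 alternatives kept 2. Over all genes, the test against 0.5 called 813 in 16T, 709 in KP1 and 1264 in KP22, and a change of at least 1 called 923, 864 and 1416. A t distribution with 6 degrees of freedom called 3091 in KP1 and 4325 in KP22. The differences between 16T and KP1 moved by less than 1 SE when recentred. No paired analysis was possible because the deposited table holds no values per library; leaving out each replicate was not run for the same reason. Means under 10 for Car9, Car12, Car4, Car13 and Car2 limit what their changes can show.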

Other observations

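Of the 6 other mouse carbonic anhydrase symbols, which were not among the listed genes, Car15 and Car14 had the highest means, at 123 and 83.9. Car14 encodes a transmembrane enzyme and Car15 a surface-anchored one. Car14 had -0.74 ± 0.34 in 16T, fell in KP1 (-1.62 ± 0.37) and rose in KP22 (1.33 ± 0.41) in the authors' deposited table, the direction opposite to that of Car8. Car15 fell in 16T (-0.84 ± 0.30), had -0.19 ± 0.29 in KP1 and rose in KP22 (0.90 ± 0.28) in the same deposited table. With a t distribution in place of the normal one, Car14 in KP22 had an adjusted p of 0.0719 and Car15 had 0.0898 in 16T and 0.0748 in KP22. A stretch of 263 bases of Car15 exon is shared with the gene Gm20518 in GENCODE. The mitochondrial Car5b, at a mean of 18.2, fell in KP1 (-1.19 ± 0.48) in the authors' deposited table, with an adjusted p of 0.0435 (DESeq2) that was 0.0574 over all features without a filter. Car5a and Car6 had means of 2.55 and 1.22, and Car1 was listed at 0. Part of Car5a was merged with BC048644 into a joined feature with a mean of 29.4. Part of Car14 was merged with Aph1a into a joined feature with a mean of 2058. The values given for Car5a and Car14 leave these parts out.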
